A study of Homo sapiens with 9 samples.

Results

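The ATP-binding cassette (ABC) transporter genes of BEAS-2B cells were taken as every protein-coding gene of the count table whose symbol begins with ABCA, ABCB, ABCC, ABCD or ABCG and ends in a number. The rule found 41 genes among 63187 in the table. Of these, 28 had at least 10 counts in at least 3 of the 9 libraries and were tested, among 16030 genes that passed the same filter. The rule used gene names and a count minimum only, and no comparison between conditions.

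ABC transporters couple the binding and breakdown of ATP to the movement of substrates across membranes. The ABCA proteins and some ABCG proteins move phospholipids and sterols, the drug exporters ABCB1, ABCG2 and the ABCC proteins remove xenobiotics and their conjugates, other ABCB proteins sit in mitochondria or lysosomes, and the ABCD proteins carry very long chain acyl groups into peroxisomes or cobalamin out of lysosomes. In the lung, ABCA3 is best known for loading surfactant phospholipid into the lamellar bodies of alveolar type 2 cells, and the drug exporters are known from the airway epithelium.

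BEAS-2B cells come from human bronchial epithelium and were immortalized, and all groups came from this 1 line. Untreated cells were the control. PG/VG cells received, for 24 h at a 2% (v/v) dilution, condensed aerosol of a plain carrier made of propylene glycol and vegetable glycerine, and EC cells received that of an e-cigarette liquid with 18 mg/ml nicotine and Virginia tobacco flavor under the same conditions. Each condition has 3 libraries, numbered 2, 3 and 4, and the labels give the same number as the batch. EC vs. PG/VG therefore compares a liquid with nicotine and flavor with a plain carrier liquid. The carrier ratio of the EC liquid is not given. The separate parts of nicotine, flavor and carrier make-up cannot be told apart. The study's methods call the replicates biological, and what the batches were is not given in the sources used here.

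The libraries held 16168260 to 24917838 counts on genes. The 41 ABC genes together took 0.0794% to 0.0861% of the counts in the control libraries and 0.0872% to 0.0937% in the PG/VG libraries. In the EC libraries they took 0.0881% to 0.0945%, so that each treated library lay above each control library. These shares use unscaled library totals. With library size as the only scaling, the median log2 fold change over all genes was also above 0, at 0.068 in EC and 0.04 in PG/VG vs. control. Keratins of simple epithelium were abundant in control, with KRT8 at 1058 ± 177 CPM (counts scaled to 1e6 per library; SD, n = 3) and KRT18 at 546 ± 132 CPM, whereas the basal cell markers KRT5, KRT14 and TP63 had 3, 4 and 18 counts in all 9 libraries. The mesenchymal genes FN1 (4791 ± 1047 CPM; SD, n = 3) and VIM (1068 ± 70.8 CPM; SD, n = 3) were high as well. Of 10 alveolar type 2 markers only LAMP3 and LPCAT1 were tested, neither was called in a treatment comparison, and the surfactant protein genes SFTPA1, SFTPA2, SFTPB, SFTPC and SFTPD had 0, 1, 3, 4 and 3 counts in all.

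Levels in untreated cells spanned more than 2 orders of magnitude per length of exon. ABCC1 (MRP1), which exports glutathione conjugates, was the highest at 21.2 ± 1.12 CPM per kb (SD, n = 3), above 85.7% of the genes tested. The mitochondrial ABCB10 at 12.2 ± 0.496 CPM per kb and the peroxisomal ABCD3 (PMP70) at 11.3 ± 0.744 CPM per kb came next, with intervals of 1 SD that overlapped. ABCC4 (MRP4), an exporter of cyclic nucleotides and prostaglandins, followed at 8.68 ± 0.906 CPM per kb. ABCA3 was at 5.43 ± 0.379 CPM per kb, and the mitochondrial ABCB8, the drug exporter ABCC3 and the lipid transporters ABCA5 and ABCA2 ranked between places 7 and 11 with 3.44 to 4.87 CPM per kb. The lowest of the tested genes was ABCA13 at 0.0583 ± 0.0441 CPM per kb. ABCA10, ABCA12, ABCG4, ABCC6 and ABCC2 lay between 0.106 and 0.174 CPM per kb, and the spread of ABCA1 (2.55 ± 2.17 CPM per kb) was nearly as large as its mean.

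**Figure D1:**
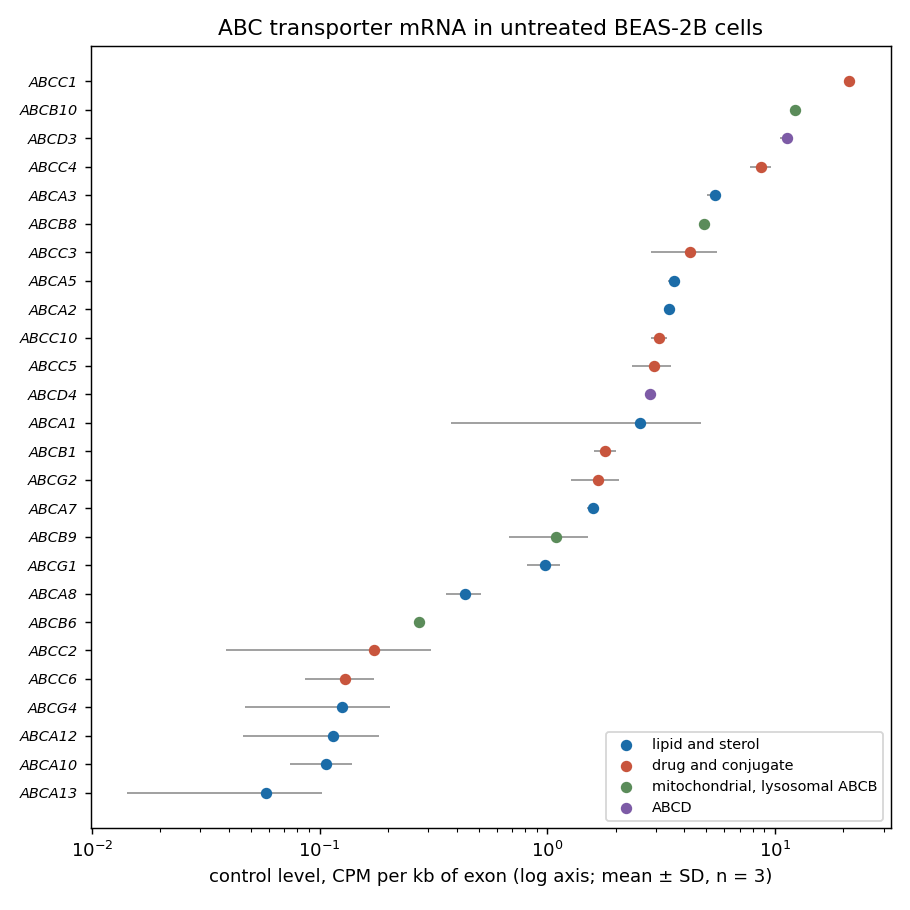
Level of 26 tested ABC transporter genes in untreated BEAS-2B cells, in CPM per kb of exon on a log axis. Points are means and bars the SD of 3 libraries, colored by role, and the genes run from ABCA13 at 0.0583 to ABCC1 at 21.2 CPM per kb.

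The other 13 ABC genes stayed under the count minimum. ABCC8 and ABCC9, the sulfonylurea receptors, had at most 1 and 2 counts in any library, and the bile transporters ABCB4 and ABCB11 had at most 2 and 3 counts. ABCA4, ABCA6 and ABCA9 reached 8, 7 and 1 counts in their highest library, ABCB5 reached 3, ABCC11 and ABCC12 reached 9 and 4, and ABCD2 reached 6. ABCG5, which forms the intestinal and hepatic sterol exporter with ABCG8, had 0 counts in all 9 libraries, which allows up to 3 counts of 184477422 or 0.0163 CPM over all libraries, counting error only, and ABCG8 had 1 count. None of these genes enters a comparison.

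In EC vs. control, 9 of the 28 ABC genes (32.1%) rose and 0 fell in edgeR's quasi-likelihood test at a Benjamini-Hochberg adjusted p under 0.05, with the batch in the model. Among all genes tested 13.5% were called, 8.07% higher and 5.38% lower. Among the genes that rose were the lipid transporters ABCA3, ABCA7, ABCA12 and ABCG4, the drug exporters ABCG2, ABCC3 and ABCB1 and the lysosomal peptide transporter ABCB9. In PG/VG vs. control, 3 ABC genes rose, ABCA3 and ABCA7 among them, and 1 fell (ABCA5), or 14.3% of 28, where 4.54% of all genes were called, 2.63% higher and 1.9% lower. The 2 comparisons share the 3 control libraries. In total 10 of the 28 genes were called in either comparison, and each of these calls had the same direction in 3 of 3 batches. Without the batch in the model 0 ABC genes were called in either comparison, where 16 of 16030 genes were called for EC and 1 for PG/VG, while the LFC of ABCA3 after EC stayed at 0.40 and that of ABCA7 at 0.54.

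Over the 28 ABC genes the median log2 fold change (LFC) was 0.09 for EC and 0.16 for PG/VG against control, beside 0.0078 and 0.013 over all genes tested. A positive LFC was found for 17 ABC genes in EC and 22 in PG/VG, beside 8262 and 8483 of the 16030 genes tested. With library size as the only scaling, the median after EC was 0.15 with 23 genes above 0, and the median over all genes was 0.068. CPM ranges of EC and control did not overlap for 8 ABC genes, 6 of them higher in EC, where 17.3% of all genes had separate ranges, and the PG/VG and control ranges did not overlap for 6, 3 of them higher, where 14.2% of all genes did. The balance of calls over all genes depended on the scaling. With library size as the only scaling, 1863 genes were called higher and 486 lower in EC vs. control, in place of 1294 and 863, and 609 higher and 236 lower in PG/VG vs. control, in place of 422 and 305, while 10 and 5 ABC genes were called.

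**Figure D2:**
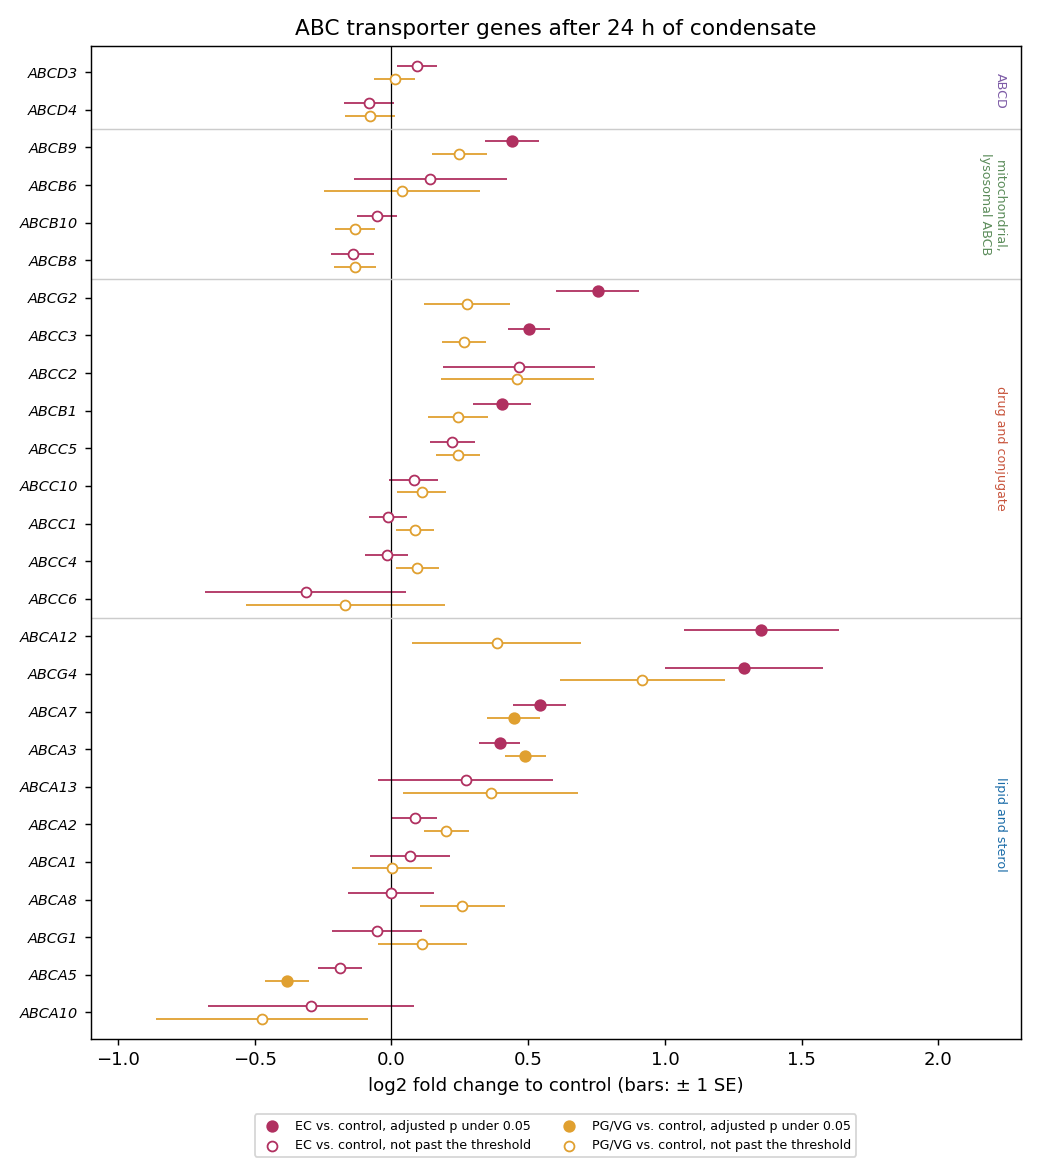
LFC against control of 26 tested ABC transporter genes after EC and after PG/VG, grouped by role, with bars of 1 SE and filled points for an adjusted p under 0.05. The filled EC points all lie to the right of 0, with LFC from 0.40 to 1.35, and the only filled point to the left of 0 is ABCA5 in PG/VG.

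ABCA3 and ABCA7 were higher in both treatments. ABCA3 (chr16:2275881-2340746, minus strand, GRCh38) gave 39.3, 45.1 and 42.8 CPM in control replicates 2, 3 and 4, 58.7, 62.4 and 57.3 CPM in PG/VG and 53.2, 59.4 and 54.8 CPM in EC. All 6 treated libraries lay above all 3 control libraries, and PG/VG was the higher of the treatments in every batch. The LFC of ABCA3 was 0.49 with an SE of 0.075 in PG/VG vs. control (edgeR, Benjamini-Hochberg adjusted p = 0.0006) and 0.40 with an SE of 0.075 in EC vs. control (edgeR, adjusted p = 0.00109). Both calls held with each of the 9 libraries left out in turn, and with batch 4 left out. Reads counted here came from exons, and no part of the ABCA3 exon length overlaps another gene in GENCODE 44. Summed over 10 genes, the alveolar type 2 markers were at 98.6 to 105 CPM in control, 107 to 117 CPM in PG/VG and 106 to 109 CPM in EC. Nearly all of the sum came from LAMP3 and LPCAT1, and the secreted surfactant proteins gave almost none.

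ABCA7, a phospholipid exporter and a risk gene for Alzheimer's disease (chr19:1039997-1065572, plus strand), was at 14.2, 15.8 and 15.9 CPM in control, 18.6, 21.1 and 22.9 CPM in PG/VG and 19.8, 21.9 and 25.2 CPM in EC. Neither treated group overlapped the control. ABCA7 had an LFC of 0.54 with an SE of 0.096 in EC vs. control (edgeR, adjusted p = 0.000566) and of 0.45 with an SE of 0.097 in PG/VG vs. control (edgeR, adjusted p = 0.00898). The PG/VG call of ABCA7 was lost without control replicate 4, PG/VG replicate 2 or PG/VG replicate 4, with adjusted p up to 0.0603, and also without the whole of batch 4, whereas the EC call held in each of these.

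Promoter windows of ABCA3, ABCA7 and ABCA5, which changed in PG/VG vs. control, and of the drug exporter ABCG2, which changed in EC vs. control, are shown to let their letters be compared. They run from 250 bases before to 50 bases after a RefSeq transcript start (GRCh38.p14), 5′ to 3′ on the gene's strand. They lie at chr16:2340679-2340978 (minus strand, ABCA3), chr19:1039857-1040156 (plus strand, ABCA7), chr17:69327084-69327383 (minus strand, ABCA5) and chr4:88158810-88159109 (minus strand, ABCG2, 1 of 2 overlapping windows with equally many matches, the most among 5 listed for this gene). Capitals mark the core of the xenobiotic response element bound by the aryl hydrocarbon receptor (GCGTG), the core of the antioxidant response element bound by NRF2 (TGACNNNGC) and the E-box CACGTG, searched on both strands.
ABCA3: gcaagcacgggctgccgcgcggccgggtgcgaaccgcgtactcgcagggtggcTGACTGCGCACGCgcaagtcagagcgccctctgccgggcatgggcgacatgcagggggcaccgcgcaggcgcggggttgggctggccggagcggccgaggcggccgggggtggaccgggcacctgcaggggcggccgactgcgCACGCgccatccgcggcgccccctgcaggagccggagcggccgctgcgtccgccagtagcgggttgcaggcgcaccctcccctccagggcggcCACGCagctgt
ABCA7: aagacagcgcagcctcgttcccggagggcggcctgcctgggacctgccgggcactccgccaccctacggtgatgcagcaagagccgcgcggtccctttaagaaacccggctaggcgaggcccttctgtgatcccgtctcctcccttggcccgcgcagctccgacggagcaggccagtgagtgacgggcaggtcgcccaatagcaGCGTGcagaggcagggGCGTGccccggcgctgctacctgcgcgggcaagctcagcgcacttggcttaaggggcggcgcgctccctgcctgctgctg
ABCA5: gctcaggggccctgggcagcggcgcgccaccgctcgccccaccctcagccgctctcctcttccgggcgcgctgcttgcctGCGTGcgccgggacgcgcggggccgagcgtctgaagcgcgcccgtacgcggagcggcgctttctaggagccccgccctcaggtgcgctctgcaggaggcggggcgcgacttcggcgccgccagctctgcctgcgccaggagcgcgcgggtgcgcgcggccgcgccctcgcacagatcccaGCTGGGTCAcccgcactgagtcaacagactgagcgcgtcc
ABCG2: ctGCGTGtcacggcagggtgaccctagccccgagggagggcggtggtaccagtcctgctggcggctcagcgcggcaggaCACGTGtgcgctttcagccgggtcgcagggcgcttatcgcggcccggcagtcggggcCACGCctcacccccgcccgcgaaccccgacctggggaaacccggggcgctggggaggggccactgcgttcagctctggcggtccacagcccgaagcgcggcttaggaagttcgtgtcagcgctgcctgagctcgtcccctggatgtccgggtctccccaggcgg

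The ABCA3 window held 3 xenobiotic response element cores and 1 antioxidant response element core, and the first of the former shares 1 base with the latter. The ABCA7 window held 2 xenobiotic response element cores, the ABCA5 window 1 core of each of these elements and the ABCG2 window 2 xenobiotic response element cores and 1 E-box. GC content was 78% in the window of ABCA3, 70% in ABCA7, 76.3% in ABCA5 and 72.3% in ABCG2. These values stood at percentiles 95.5, 80.5, 93.1 and 85.7 of the windows of all genes. RefSeq windows were found for 22 of the 28 tested genes, 35 in all with some overlapping, and ABCA8, ABCC1, ABCC3 and ABCG1 were among those with none. The xenobiotic response element core stood in 18 of these 35 windows (51.4%) and in 36.5% of 35116 windows of all genes. For the antioxidant response element core it was 10 windows (28.6%) against 13.3%, and for the E-box 7 windows (20%) against 7.26%. Overlapping windows can count the same match more than once, as in ABCG2, and the shares were not matched for GC content. A match is not a bound site.

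ABCA5, a lipid transporter of lysosomes and late endosomes (chr17:69244311-69327244, minus strand), was the ABC gene that fell. It was at 50.9, 45.5 and 46.0 CPM in control and at 36.5, 37.4 and 35.4 CPM in PG/VG, with no overlap. The EC libraries lay between, at 40.5, 44.5 and 40.0 CPM. The LFC of ABCA5 was -0.38 with an SE of 0.081 in PG/VG vs. control (edgeR, adjusted p = 0.00785) and -0.19 with an SE of 0.080 in EC vs. control (edgeR, adjusted p = 0.126). The PG/VG call of ABCA5 was lost without control replicate 2 or PG/VG replicate 2, with adjusted p up to 0.0742, and without batch 4. Its neighbors in the same gene cluster on chromosome 17 were low. ABCA8 had an LFC of 0.26 in PG/VG vs. control (edgeR, adjusted p = 0.366) and of -0.0026 in EC vs. control, and ABCA10, with 11 to 22 counts per library, had -0.47 and -0.29, none past the threshold. ABCA5 and ABCA10 overlap in 2.42% and 3.78% of their exon lengths.

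ABCA12 and ABCG4 had the largest LFC in EC vs. control among the ABC genes and rest on few counts. ABCA12, which loads glucosylceramide into the lamellar granules of keratinocytes (chr2:214931542-215138626, minus strand), had 10 to 109 counts per library. It was at 0.699, 0.743 and 1.86 CPM in control, 1.27, 0.547 and 2.44 CPM in PG/VG and 1.51, 1.79 and 5.41 CPM in EC. EC was above the control of its own batch in 3 of 3 batches, but the group ranges overlapped because all batch 4 libraries were high, and in PG/VG batch 3 went the other way. ABCA12 was 2.55-fold higher in EC than in control, with an LFC of 1.35 and an SE of 0.28 (edgeR, adjusted p = 0.00271). Without EC replicate 4 the adjusted p was 0.0562, and the call was also lost without batch 4.

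ABCG4, a sterol exporter best known from brain (chr11:119149052-119162653, plus strand), had 8 to 64 counts per library. Control replicates 2 and 3 had 8 counts each, so it passed the minimum of 10 through control replicate 4 and the treated libraries, where it was higher. With 10 counts required in every library it was not tested. In that fit 8 of 27 ABC genes were called in EC vs. control, where 2031 of 13680 genes were called. Control libraries gave 0.508, 0.495 and 1.35 CPM, PG/VG libraries 1.02, 1.04 and 2.36 CPM and EC libraries 1.27, 1.32 and 3.17 CPM. The within-batch LFC of ABCG4 lay between 1.17 and 1.26 in EC and between 0.76 and 0.94 in PG/VG. The call in EC vs. control had an LFC of 1.29 with an SE of 0.29 (edgeR, adjusted p = 0.00473), while PG/VG vs. control gave 0.92 with an SE of 0.30 (edgeR, adjusted p = 0.0811). The EC call of ABCG4 was lost without batch 4.

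The sterol exporters ABCA1 and ABCG1, targets of the liver X receptors (LXR), were not called in a treatment comparison. ABCA1 had an LFC of 0.07 with an SE of 0.15 in EC vs. control and of 0.003 with an SE of 0.15 in PG/VG vs. control, and ABCG1 had -0.05 and 0.11 with SEs of 0.16. ABCA2, a lysosomal lipid transporter, reached 0.20 with an SE of 0.082 in PG/VG vs. control (edgeR, adjusted p = 0.169), and ABCA13 had 0.27 and 0.36 with SEs of 0.32. Of 13 tested genes in a list of LXR receptors, partners and targets, 2 rose in EC vs. control. They were the phosphodiesterase SMPDL3A (LFC 0.63) and the fatty acid desaturase SCD (0.57), and SCD alone was called in PG/VG vs. control (0.32). Over all genes tested, 8.07% were called higher and 5.38% lower in EC vs. control. For PG/VG vs. control these shares were 2.63% and 1.9%. Among 12 cholesterol traffic genes 4 rose and 0 fell in EC vs. control, INSIG1 (0.68), NPC2 (0.34) and LIPA (0.21) among them. The P4-ATPases and scramblases, which move phospholipids in the membrane by other means, gave 3 rises and 1 fall among 17 genes in EC vs. control (ATP8B3 0.54, ATP10D 0.50 and ATP9A 0.36 higher, ATP8B1 -0.31), and 2 rises in PG/VG vs. control (ATP10D 0.42 and ATP9A 0.38).

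**Figure D3:**
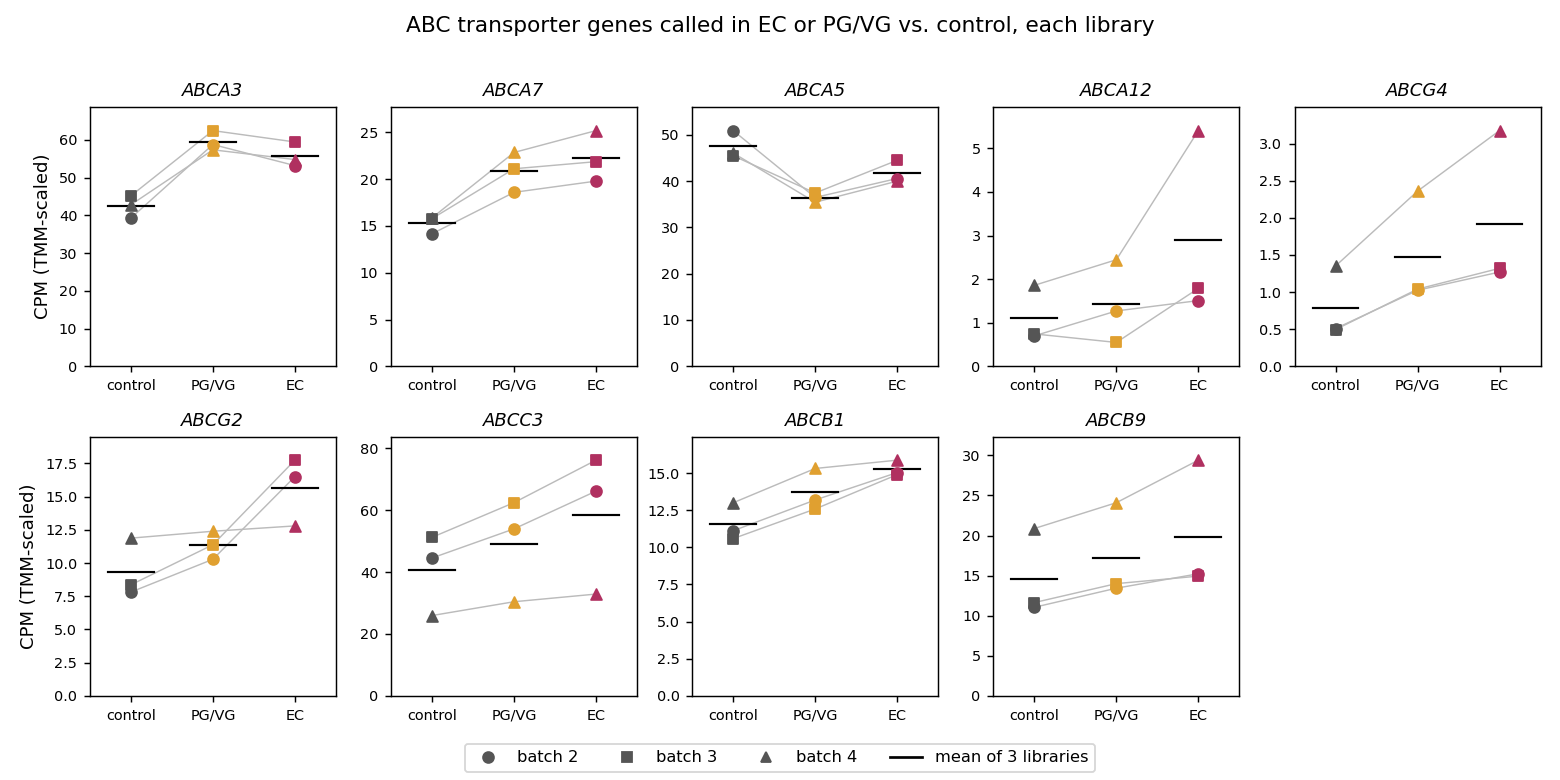
CPM in each library for 9 of the ABC transporter genes called in EC or PG/VG vs. control, by condition, with symbols for the batches, lines joining libraries of 1 batch and black bars for the mean of 3 libraries. The treated libraries of ABCA3 and ABCA7 all lie above the controls, and batch 4 stands apart for ABCA12, ABCG4, ABCC3 and ABCB9.

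Among the 9 drug and conjugate exporters tested, ABCG2, ABCC3 and ABCB1 rose in EC vs. control and none was called in PG/VG vs. control, where edgeR gave 3 with an unadjusted p under 0.05 and DESeq2 also called 0. ABCG2 (BCRP), the breast cancer resistance protein (chr4:88090150-88231628, minus strand), was at 7.81, 8.36 and 11.9 CPM in control, 10.3, 11.4 and 12.4 CPM in PG/VG and 16.5, 17.7 and 12.8 CPM in EC. The EC range lay above the others, but in batch 4 the control was already high and the 3 conditions differed little. ABCG2 had an LFC of 0.75 with an SE of 0.15 in EC vs. control (edgeR, adjusted p = 0.00312) and of 0.28 with an SE of 0.16 in PG/VG vs. control (edgeR, adjusted p = 0.342). Within batches the EC difference from control was 1.07 and 1.08 in batches 2 and 3 and 0.11 in batch 4.

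ABCC3 (MRP3), which exports glucuronides and bile salts across the basolateral membrane (chr17:50634777-50692253, plus strand), was at 44.5, 51.2 and 25.9 CPM in control, 53.9, 62.4 and 30.4 CPM in PG/VG and 66.1, 76.1 and 32.9 CPM in EC. In every batch the order was control, PG/VG, EC, and batch 4 was low in all conditions, so the group ranges overlapped. The LFC of ABCC3 was 0.50 with an SE of 0.078 in EC vs. control (edgeR, adjusted p = 0.000166), the smallest p of the ABC genes there, and 0.27 with an SE of 0.079 in PG/VG vs. control (edgeR, adjusted p = 0.0555). The EC call held with each library left out.

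ABCB1, the multidrug exporter P-glycoprotein (chr7:87503017-87713323, minus strand), was at 11.1, 10.6 and 13.0 CPM in control, 13.2, 12.6 and 15.3 CPM in PG/VG and 15.0, 14.9 and 15.9 CPM in EC. EC and control did not overlap. ABCB1 had an LFC of 0.40 with an SE of 0.11 in EC vs. control (edgeR, adjusted p = 0.0138) and of 0.24 with an SE of 0.11 in PG/VG vs. control (edgeR, adjusted p = 0.209). Its EC call was lost without control replicate 2, control replicate 3, EC replicate 2 or EC replicate 3, with adjusted p up to 0.107.

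The most abundant exporter, ABCC1, had an LFC of -0.01 after EC and 0.09 after PG/VG, each with an SE of 0.071, and was not called. ABCC4 gave -0.02 and 0.09 with SEs of 0.079, and ABCC10 gave 0.08 and 0.11 with SEs of 0.090. ABCC5 (MRP5), which exports cyclic nucleotides, was 0.22 higher in EC and 0.24 higher in PG/VG on the log2 scale with SEs of 0.082, and the adjusted p of 0.0754 and 0.0918 (edgeR) missed the threshold. ABCC2 and ABCC6 had at most 64 and 23 counts in a library, and their LFC in EC vs. control of 0.47 and -0.31 had SEs of 0.28 and 0.37. ABCC6 has near-identical pseudogenes, so its counts without multi-mapping reads are uncertain.

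Of 11 tested regulators of drug transporter genes, 0 rose and 1 fell in each treatment. The calls were PPARD in EC vs. control (LFC -0.25) and the aryl hydrocarbon receptor gene AHR in PG/VG vs. control (-0.32). An unadjusted p under 0.05 (edgeR) was reached by 5 of the 11 after EC and by 2 after PG/VG. Over all 16030 genes tested, 4391 and 3225 reached it. NFE2L2, which encodes NRF2, had an LFC of -0.0019 and -0.11. AHRR had an LFC of 0.60 after EC (edgeR, adjusted p = 0.106) and of -0.10 after PG/VG. In EC vs. PG/VG its LFC was 0.70 (edgeR, adjusted p = 0.179), and AHRR was not called. Many ABCC proteins carry conjugates. Among 14 tested enzymes of conjugation or glutathione synthesis, GSTM4 (0.65), MGST2 (0.47) and MGST1 (0.42) rose in EC vs. control. GSTM4 alone rose in PG/VG vs. control (0.45). The share of all genes called higher was 8.07% in EC and 2.63% in PG/VG vs. control. None of the 4 tested SLCO organic anion uptake carriers was called by edgeR, with 0 and 1 of them at an unadjusted p under 0.05 in EC and PG/VG vs. control.

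The 5 mitochondrial and lysosomal ABCB genes gave 1 call. ABCB9 (TAPL), a lysosomal peptide transporter (chr12:122920951-122981649, minus strand), was at 11.1, 11.6 and 20.9 CPM in control, 13.4, 14.0 and 24.1 CPM in PG/VG and 15.2, 14.9 and 29.4 CPM in EC. EC was above control by 0.46, 0.36 and 0.49 on the log2 scale in batches 2, 3 and 4, and batch 4 was high in all conditions. The LFC of ABCB9 was 0.44 with an SE of 0.099 in EC vs. control (edgeR, adjusted p = 0.00473) and 0.25 with an SE of 0.10 in PG/VG vs. control (edgeR, adjusted p = 0.163). The EC call was lost without batch 4. ABCB9 shares 24.6% of its exon length with other genes, and the strand setting of the counting is not given in the sources used here, so its counts are uncertain.

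ABCB8, a transporter of the inner mitochondrial membrane, was at 44.4, 46.4 and 45.6 CPM in control, 38.5, 42.2 and 43.8 CPM in PG/VG and 38.3, 41.5 and 43.9 CPM in EC. Both treated ranges lay below the control range, yet the LFC of -0.14 after EC and -0.13 after PG/VG, each with an SE of 0.077, did not pass the threshold (edgeR, adjusted p = 0.242 and 0.349). ABCB10, linked to heme synthesis, had an LFC of -0.05 and -0.13 with SEs of 0.074. ABCB6, 54.6% of whose exon length lies in other annotated genes, had 22 to 44 counts per library and an LFC of 0.14 and 0.04. Of 13 iron-sulfur and heme genes, 1 fell in EC vs. control, LYRM4, an assembly factor of iron-sulfur clusters (LFC -0.24), and edgeR called 0 in PG/VG vs. control, with 2 at an unadjusted p under 0.05.

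ABCD3, the major peroxisomal transporter, was at 90.2, 79.7 and 88.8 CPM in control, 81.6, 79.7 and 100.3 CPM in PG/VG and 90.9, 86.9 and 98.1 CPM in EC. The groups overlapped, and the LFC was 0.09 and 0.01 with SEs of 0.074 and 0.075. ABCD4, which carries cobalamin in lysosomes, had an LFC of -0.08 in both comparisons with SEs of 0.091. Of 13 genes of peroxisome assembly, fatty acid oxidation and cobalamin handling that act with ABCD proteins, edgeR called 0 in either comparison, with 3 and 1 at an unadjusted p under 0.05. ABC proteins outside the naming rule also differed. TAP1, a peptide transporter of antigen presentation, rose in EC (LFC 0.51) and PG/VG vs. control (0.36), ABCE1, a ribosome recycling factor, fell in EC vs. control (-0.28), and TAP2, ABCF1, ABCF2 and ABCF3 were not called. KCNJ11, a potassium channel partner of ABCC8, had an LFC of 1.31 with an SE of 0.49 in EC vs. control (edgeR, adjusted p = 0.0804) on 100 counts in all.

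**Figure D4:**
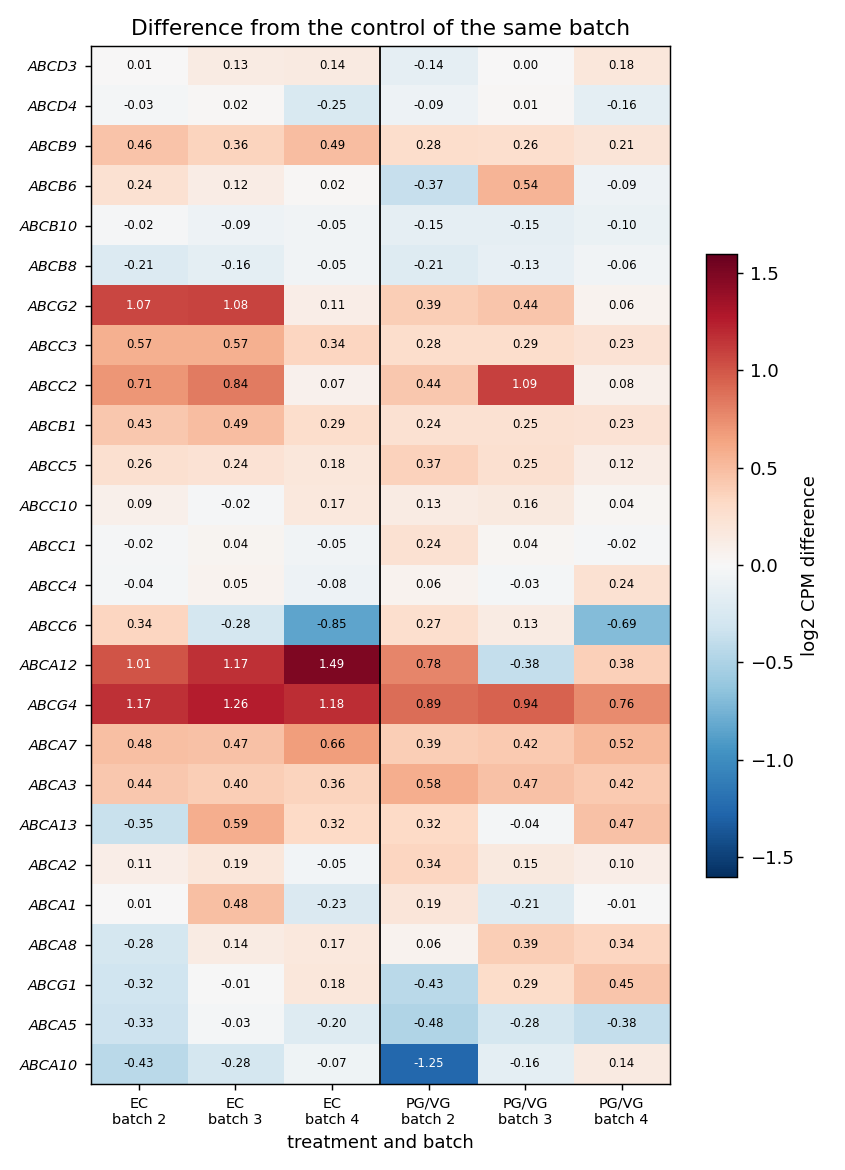
Difference in log2 CPM between each treated library and the control of the same batch for 26 ABC transporter genes, with the value printed in each cell. ABCA3, ABCA7, ABCG4, ABCG2, ABCC3, ABCB1 and ABCB9 are above 0 in all 6 columns, as are ABCC2 and ABCC5, which were not called. ABCG2 is near 0 in batch 4.

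EC vs. PG/VG called 0 of the 28 ABC genes in edgeR, with 4 at an unadjusted p under 0.05 and 0 calls by DESeq2 with the batch in the model. Among all genes 0.855% were called, 0.555% higher and 0.299% lower. With library size as the only scaling the calls over all genes were 145 higher and 31 lower, in place of 89 and 48. The genes with the smallest p were ABCA12 with an LFC of 0.97 and an SE of 0.26 (edgeR, adjusted p = 0.0803), ABCG2 with 0.48 and an SE of 0.15 (edgeR, adjusted p = 0.149), ABCC3 with 0.24 and an SE of 0.076 (edgeR, adjusted p = 0.157) and ABCA5 with 0.19 and an SE of 0.080 (edgeR, adjusted p = 0.291). The median LFC of the ABC genes was 0.015, against 0.0024 over all genes. CPM ranges of EC and PG/VG did not overlap for 3 ABC genes, ABCG2 and ABCA5 higher and ABCA8 lower in EC, where 7.91% of all genes had separate ranges. For ABCA3 and ABCA7, called in both treatments, the difference was -0.09 with an SE of 0.073 and 0.09 with an SE of 0.091. ABCG2 was called without EC replicate 4 and in batches 2 and 3 alone, and ABCA12 and ABCG2 were called when the 2 groups were fitted alone.

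Batch 4 differed from batches 2 and 3 in 14 of the 28 ABC genes (50%), 11 higher and 3 lower, where 40.6% of all genes were called, 20.1% higher and 20.5% lower. ABCA1 was at 57.3, 56.8 and 49.0 CPM in the batch 4 libraries of control, PG/VG and EC, and at 14.7, 16.8 and 14.8 CPM in batch 2 and 14.6, 12.6 and 20.4 CPM in batch 3. The ranges were far apart in every condition, and the LFC of ABCA1 was 1.79 with an SE of 0.12 (edgeR, adjusted p = 4.68e-08). Higher in batch 4, among others, were ABCA13 (1.87), ABCA12 (1.53), ABCG4 (1.28), ABCC2 (1.21), ABCB9 (0.89), ABCG1 (0.43), ABCC5 (0.37), ABCC10 (0.19) and ABCD3 (0.18), and lower were ABCC3 (-0.98), ABCC4 (-0.22) and ABCA2 (-0.19). ABCA3 (-0.03), ABCA5 (-0.07) and ABCG2 (0.08) were not called. Leaving out 1 library gave 9 to 14 calls, 9 of them without PG/VG replicate 2 or EC replicate 4. Some calls were less stable, with ABCC10 called in 2 of 9 such fits and ABCD3 and ABCA2 in 4 each. Batch 4 is 1 batch, so these p-values rest on the spread of libraries and do not measure the spread between batches.

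**Figure D5:**
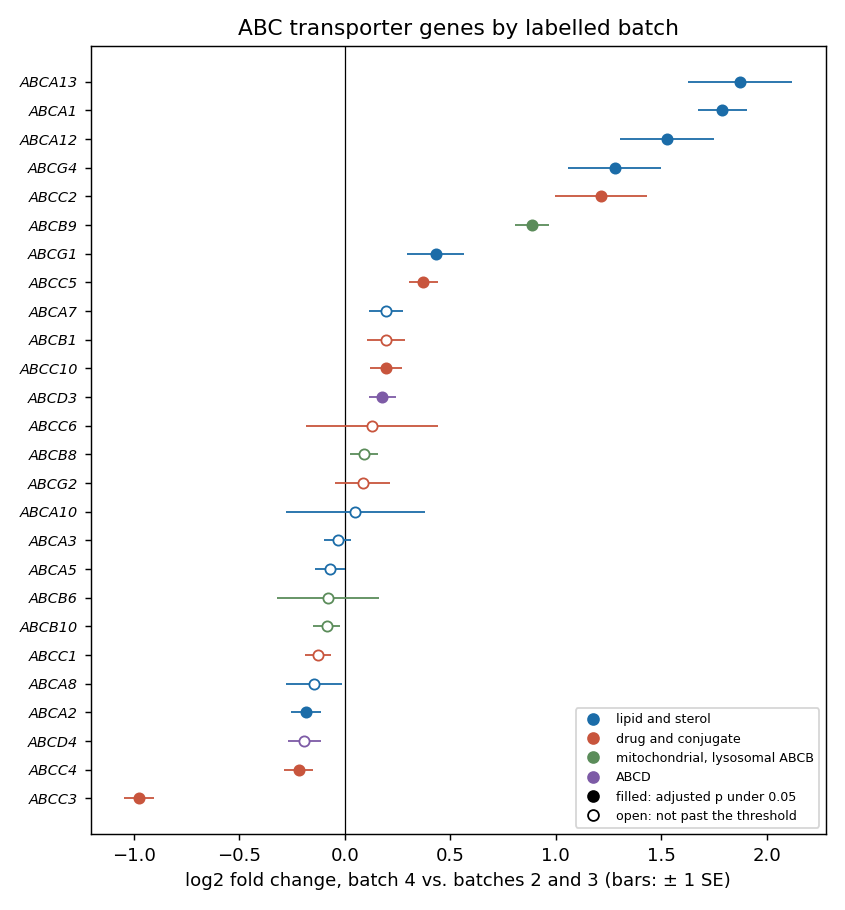
LFC of 26 ABC transporter genes in batch 4 vs. batches 2 and 3 with bars of 1 SE, colored by role and filled where the adjusted p was under 0.05. ABCA13 and ABCA1 lie highest at 1.87 and 1.79, and ABCC3 lowest at -0.98.

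Genes listed as cell type markers moved with some of these comparisons, and their part in the results was not tested. Summed over 8 bronchial epithelial markers, the level was 1266 to 1807 CPM in control, 1237 to 1749 CPM in PG/VG and 1072 to 1497 CPM in EC, with KRT8 (LFC -0.25) and KRT18 (-0.46) lower in EC vs. control, while the other tested members, EPCAM (0.57), CDH1 (0.36) and KRT19 (0.18), had a positive LFC and were not called. Over 7 fibroblast and mesenchymal markers it was 5047 to 7031 CPM in control, 4656 to 6748 CPM in PG/VG and 3561 to 5471 CPM in EC, most of it FN1, which fell in EC vs. control (-0.58) as did CDH2 (-0.25), whereas PDGFRB rose (0.25) and VIM (-0.22) and COL1A1 (0.17) were not called. The same sum was 3561 to 5047 CPM in batch 4 against 4614 to 7031 CPM in batches 2 and 3. Secretory and ciliated markers, of which TUBA1A alone of 7 was tested, summed to 176 to 183 CPM in control, 155 to 174 CPM in PG/VG and 180 to 209 CPM in EC, with SCGB1A1 at 7 counts in all. Leukocyte markers, of which CD14 alone of 6 was tested, summed to at most 9.06 CPM, with CD3E at 0 and PTPRC at 4 counts in all. All libraries came from 1 cell line, so these sums do not measure a mix of cell types. Bulk libraries do not show whether all cells of the line changed alike.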

How the data were processed

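RNA of 9 BEAS-2B samples was sequenced by the authors as poly(A)-selected libraries. Per the labels and the study's methods, fastp trimmed the reads, STAR aligned them to GRCh38.p12, and the authors assigned them to Ensembl 111 exons with featureCounts of Subread 2.0.4, leaving out multi-mapping and multi-overlapping reads. What they deposited are the raw counts of 63187 genes in 9 columns, without filter, scaling or batch adjustment.

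Gene names, exon lengths and coordinates came from GENCODE 44 (62666 identifiers matched). The 16030 genes that reached 10 counts in 3 or more libraries were fitted in R 4.3.3 with edgeR 4.0.16, using TMM factors and 1 robust quasi-likelihood model of all 9 libraries with a term for condition and for batch. Adjusted p-values are Benjamini-Hochberg over 16030 genes, with a threshold of 0.05. The SE was approximated as the absolute LFC over the root of the F statistic. CPM uses TMM-scaled library sizes, and log2 CPM within batches a prior count of 2. Deviations from the condition mean correlated at 0.334 to 0.707 in 9 same-numbered pairs of libraries. In 18 pairs with different numbers the correlations were -0.539 to 0.426. The highest and the negative values all involved batch 4. Between batches 2 and 3 the correlations were mixed and do not settle whether libraries were paired by number. PG/VG 2 correlated at 0.426 with EC 3 and at 0.356 with EC 2. Control 2 correlated at 0.348 with PG/VG 2 and at 0.287 with PG/VG 3. The batch entered the model as a replicate block because the labels give it and the study's methods remove it. No pair of replicates agreed within sampling noise (chi-square per gene at least 3.66).

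Alternatives were no replicate block, RLE normalization or library size only, no filter, a minimum of 10 counts in all libraries, DESeq2 1.42.0, ComBat-Seq of sva 3.50.0 followed by DESeq2, 2 groups alone and each library left out. Batches 2 and 3 alone, and an interaction with batch 4, were added after seeing the data. The steps were tested on simulated data. The ABC genes, their role groups and 15 lists of 162 genes were chosen with earlier results of these data known. Values in every library are given for ABCA3, ABCA7, each called gene reported and the 2 genes with the smallest p in each role group. ABCA1 was added after its values were seen. Genes of a list are named where called, at most 4 a list, and other names from the lists were chosen after their values were seen. Results for some genes that fall under these rules are not reported here.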

Additional observations from a re-analysis of the deposited data

How the results depend on the processing

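The counts of called ABC genes stayed within 1.5 times the reported value in 55 of 68 alternatives, no LFC reversed its sign past the threshold, and of the refitted LFC 395 stayed on their side of it and 69 did not. Without the replicate block the count was 0 for EC and 0 for PG/VG against control, where 16 and 1 of 16030 genes were called, and the LFC of ABCA3 after EC was 0.40 in both fits. Leaving out each library gave 8 to 9 in EC vs. control, 1 to 5 in PG/VG vs. control, 0 to 1 in EC vs. PG/VG and 9 to 14 in batch 4 vs. batches 2 and 3. The lowest PG/VG count, 1 (ABCA3), came without PG/VG replicate 2, and 2 remained called without control replicate 2 or PG/VG replicate 4. In EC vs. PG/VG, 2 genes were called with no filter (ABCA12 and ABCG2), 3 by ComBat-Seq and DESeq2 (these and ABCC3) and 2 with the 2 groups alone. In batches 2 and 3 only, 6 ABC genes were called in EC vs. control, 1 in PG/VG vs. control and 1 in EC vs. PG/VG, where 1216, 324 and 80 of 15488 genes were called, with 4 libraries a comparison in place of 6. For the others the cause was not tested. Genes with fewer than 100 counts in each library, ABCA10, ABCA13, ABCB6, ABCC2, ABCC6 and ABCG4, had SEs of 0.28 to 0.39 in EC and PG/VG vs. control, against 0.075 for ABCA3.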

Other observations

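The EC difference of ABCG2 from control was 1.07 and 1.08 on the log2 CPM scale in batches 2 and 3 and 0.11 in batch 4, and the interaction of EC with batch 4, tested in edgeR after this was seen, was -0.97 with an SE of 0.22 (unadjusted p = 0.0006, adjusted p = 0.26), which did not pass the threshold. Over all genes 2 of 16030 (0.0125%) passed that test, and no ABC gene was among them. ABCC2, also chosen after its values were seen, had at lower counts 0.71, 0.84 and 0.07 after EC in batches 2, 3 and 4, 0.44, 1.09 and 0.08 after PG/VG, and an interaction of -0.77 with an SE of 0.53 (edgeR, adjusted p = 0.793). The control libraries of batch 4 were already the highest controls for both genes, at 11.9 CPM for ABCG2 and 2.59 CPM for ABCC2.

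Cholesterol traffic genes stood with ABCA1 and ABCG1 in batch 4. Of 12 such genes 11 were called higher in batch 4 than in batches 2 and 3 and 0 lower, with a median LFC of 0.64. INSIG1 (1.83) and NCEH1 (1.24) were among them. Of 13 LXR receptors, partners and targets 5 were called higher and 0 lower. Over all genes tested the median was -0.0031, with 20.1% called higher and 20.5% lower.

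All 14 tested enzymes of conjugation or glutathione synthesis had a positive LFC in EC vs. PG/VG, from 0.02 to 0.62 with a median of 0.18. Over all genes tested 8120 of 16030 had a positive LFC there. Of the 14 enzymes 1, MGST1, was called (0.46, edgeR, adjusted p = 0.00328), where 0.555% of all genes were called higher. In PG/VG vs. control 5 of the same 14 had a positive LFC, where 8483 of 16030 genes did. INSIG1 (0.41) and SMPDL3A (0.67) were called in EC vs. PG/VG from the lists of cholesterol traffic and LXR genes.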
